A study of Mus musculus with 24 samples.

Results

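The control tibialis anterior was described from the 12 control arrays of the series, out of 24 in all. They came from 4 of the 8 animals, with 3 arrays for each animal. The members were chosen by label, as the arrays titled as control, with earlier results of these data known. The animals were mice 6 weeks old on a mixed C57BL6/J;129S1/SvImJ background, with the genotype Myf6 cre/+; Hira flox/+. They thus carried 1 copy of the Cre recombinase at the Myf6 locus, a muscle regulatory gene active in fibres, and 1 floxed allele of Hira, which encodes a histone H3.3 chaperone. The controls were thus not free of Cre, and fibres in which it acted would keep 1 intact Hira allele. Whole muscle was dissected, frozen and extracted, so every cell type of the tissue contributed RNA. Sex was not given in the labels.

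The tibialis anterior lies along the front of the shin and lifts the foot. In mice it is a predominantly fast muscle. Fast fibres contract and relax quickly, store calcium in an extensive sarcoplasmic reticulum and draw on creatine phosphate and glycolysis, whereas slow fibres use their own troponin, tropomyosin and calcium pump isoforms. Between the fibres lie capillaries, fibroblasts, nerve endings with their Schwann cells, resident macrophages, fat cells and the satellite cells from which fibres are repaired, and tendon and bone lie next to the dissected tissue.

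Each array gave 1 intensity for each of 26423 probes. Array medians lay between 432.4 and 433.5, which follows from the common distribution the arrays had been given before deposit and says nothing of their original signal. Intensity depends on the probe as well as on the RNA, so a rank here is that of a probe and is not a measure of transcript abundance. The 3 arrays of an animal correlated at a median r of 0.994 over all probes, and arrays of different animals at 0.989. The first array of animal 2 stood apart: its correlation with the other arrays of its own animal was 0.990 and 0.992, and its highest with another animal's array was 0.992. The only test this set of arrays allows is between animals, with the 3 arrays of 1 RNA as the error. It was a limma moderated F test adjusted by Benjamini and Hochberg's method across the whole array, and a probe was called at an adjusted p under 0.05. It called 7799 of 26423 probes (29.5%), and 5682 of 17742 genes (32.0%) at each gene's brightest probe. Brighter probes were called more often, so the 32.0% is not matched to the brightness of any list set beside it below. Without animal 1 the probes called numbered 4503, and without the first array of animal 2 they numbered 8712. A call says that the RNA samples of the animals differed by more than repeat hybridisation did. Dissection, extraction and array batch cannot be told apart from the animal, and no slide or scan date was given. The adjusted p-values given below for single genes are from this test, and the range is that of the 4 animal means on the log2(intensity + 16) scale. Over all called genes the most frequent orders of the animals, from high to low, were 1, 4, 3, 2 (8.48%), 1, 3, 4, 2 (7.48%) and 1, 2, 3, 4 (6.02%). Animal 1 was thus often highest and animal 2 often lowest on the array as a whole. Counts of the highest or lowest animal in a list are to be read beside these shares.

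The brightest named genes of the control muscle were those of contraction, glycolysis and mitochondria. Pgam2, the muscle phosphoglycerate mutase of glycolysis, was the brightest, with an intensity of 365923 ± 12044 (SD, n = 4 animals), at rank 3 of all probes. Its intensities in animals 1 to 4 were 351144, 365952, 365952 and 380645. Next came Vdac1, the outer mitochondrial membrane channel, at 337687 ± 14461 (SD, n = 4), Ndrg2 at 278954 ± 3828, and Tpi1, the glycolytic triose phosphate isomerase, at 276208 ± 29828. The values of Tpi1 in animals 1 to 4 were 309095, 293525, 247400.0 and 254810.0, and its test gave adjusted p = 0.134. The fast troponins Tnni2 (275287 ± 21938) and Tnnt3 (253033 ± 12756), the pyruvate kinase gene Pkm (261002 ± 16439) and carbonic anhydrase 3, Car3 (244697 ± 10874), followed, all as mean ± SD of 4 animals. Among the 25 brightest were also Ckm, the muscle creatine kinase that regenerates ATP; Atp2a1, the fast calcium pump; Ttn, the giant spring protein titin; Mb, the oxygen store myoglobin; and Pvalb, the calcium buffer of fast fibres.

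Few of these genes were called between animals. The median range of the 25 was 0.21 log2, against 0.29 over all genes, and 2 of the 25 were called, against 32.0% of all genes. This does not show that they were stable: at the top ranks normalization to 1 distribution limits the values a probe can take, and the SD between arrays of 1 animal reached 133857 with a median of 12652 over these genes. The called genes were Fth1, the ferritin heavy chain that stores iron, with 161720.0, 172729, 194137 and 194303 in animals 1 to 4 (adjusted p = 0.0133), and Acta1, the skeletal actin, with 153953, 179420.0, 186578 and 186521 (adjusted p = 0.0212). Animal 1 was lowest for both. The calls ended for Fth1 without animal 1 (adjusted p = 0.114) and Acta1 without animal 1 (adjusted p = 0.748). Fhl1, a LIM protein of muscle, had the widest range of the 25, 0.90 log2, with adjusted p = 0.645. That range came from 1 array: its 3 arrays of animal 1 read 25542, 239031 and 272180.0, while the 9 arrays of the other animals lay between 161304 and 257378.

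**Figure D1:**
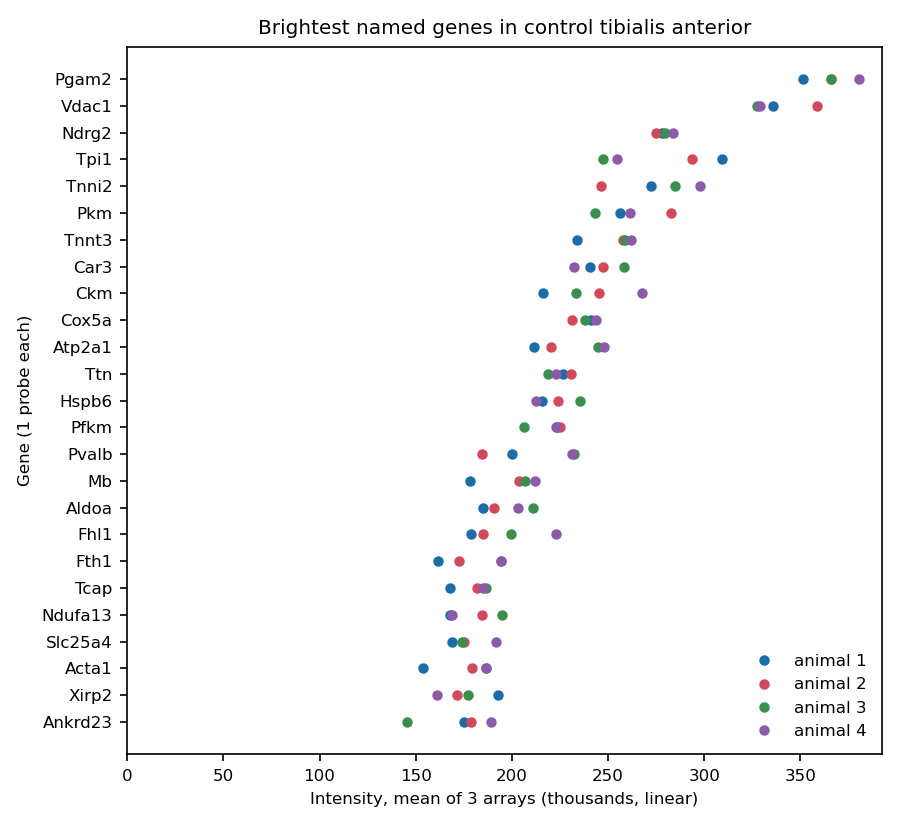
Linear intensity (x axis, in units of 1000, from 0) of the 25 brightest named genes, 1 row per gene and 1 point per control animal, each the mean of 3 arrays. Pgam2 lies at the right of the plot, and for most genes the 4 animals lie close together.

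The 100 brightest probes held 21.1% of the summed intensity of all probes. Of these, 69 had a gene name and 31 are unnamed here, so the order of named genes leaves out part of the bright end. A run of 6 unnamed probes with consecutive probe numbers, singled out after their values were seen, held ranks 2, 5, 9, 13, 17 and 29, with means from 185717 to 369636. What they measure was not analysed here. None was called between the animals, with adjusted p from 0.173 to 0.960.

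Fast fibre genes were among the brightest of the muscle. All 8 measured genes of the fast fibre list, of 17 listed, lay in the top 1% of probes, with a median percentile of 99.9, against 58.2 for all genes. Tnni2 and Tnnt3 head the group, with Tnnc2, the third fast troponin subunit, at 152465 ± 13653 (SD, n = 4). Casq1, the calcium-storing calsequestrin of fast fibres, read 175973, 171593, 154046 and 162723 in animals 1 to 4, and Actn3, the fast alpha-actinin, 99699.7, 107307, 110207 and 109944. Atp2a1 read 211360.0, 220283, 244850.0 and 247713 (adjusted p = 0.0586), and Pvalb 200279, 184221, 232120.0 and 231372 (adjusted p = 0.433). Tmod4, a cap of thin filaments, read 87028, 83832, 96385 and 80730.5. Of these 8 genes only Tnnc2 was called (136023, 146517, 164857 and 162463; adjusted p = 0.0174), and its call ended without animal 1 (adjusted p = 0.158). The called share of the list was 12.5%, against 32.0% of all genes. The myosin heavy and light chain genes of the list are not analysed here.

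The slow fibre list was dimmer and varied more. Its 8 measured genes, of 14, had a median percentile of 85.3, and 7 of 8 were called, against 32.0% of all genes. Without animals 1, 2, 3 and 4 in turn, 3, 6, 6 and 6 were called. Animal 1 was highest for 5 of the 7. The slow troponin T gene Tnnt1 read 2718, 1870.5, 1589.9 and 1526 in animals 1 to 4 (adjusted p = 3.27e-05), and the slow troponin I gene Tnni1 3153, 2784, 2401 and 2282 (adjusted p = 0.0133). Tnnc1, the slow troponin C, read 5562, 5466, 4516 and 4509 (adjusted p = 0.0307), and Atp2a2, the calcium pump of slow and cardiac muscle, 2058, 1476, 1297 and 1346 (adjusted p = 0.0066). All 4 of these genes were highest in animal 1, and Tnnt1, Tnni1 and Tnnc1 shared the order 1, 2, 3, 4 from high to low. Sln, the pump inhibitor sarcolipin, read 589.8, 440.3, 455 and 448 (adjusted p = 0.0156). The calls ended for Tnni1 without animal 1 (adjusted p = 0.143), Tnnc1 without animal 1 or 3 or 4 (adjusted p = 0.113 and 0.0597 and 0.0532), Atp2a2 without animal 1 (adjusted p = 0.263) and Sln without animal 1 (adjusted p = 0.934), while that of Tnnt1 was kept with each animal left out.

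The other members behaved differently. Csrp3, a LIM protein of the Z-disc, was low in animal 2, with 49625, 16413, 52317 and 62030.5 (adjusted p = 5.76e-06), and its call ended without animal 2 (adjusted p = 0.188). Casq2, the slow and cardiac calsequestrin, was highest in animal 2, with 10913, 19011, 14716 and 11888 (adjusted p = 0.000277). Tpm3, the slow tropomyosin, read 13173, 14688, 13875 and 14624 (adjusted p = 0.146). Thus the slow list did not move as 1 block: animal 2 was lowest for Csrp3 and highest for Casq2.

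Of the 16 measured genes common to all fibres, of 26 listed, 11 lay in the top 1% of probes. Of the 16, 7 were called (43.8%, against 32.0% of all genes). Ttn read 226357, 230603, 218599 and 222917 in animals 1 to 4, a range of 0.08 log2, and Tcap, which caps titin at the Z-disc, 167720.0, 181964, 186607 and 185183. Nrap, a protein of myofibril assembly, was highest in animal 4 with 62869, 60910.0, 61666 and 82403 (adjusted p = 0.00396), a call that ended without animal 4 (adjusted p = 0.854). Genes of the immature fibre stood lower. The 11 measured of 16 had a median percentile of 61.5, near the 58.2 of all genes. Chrng, the fetal acetylcholine receptor subunit, read 703, 827, 967 and 765, and Ncam1, an adhesion molecule of immature and denervated fibres, 717, 625, 815 and 813. Mymk and Mymx, needed for myoblast fusion, read 325 ± 33.5 and 248 ± 29.6 (SD, n = 4). The growth factor gene Igf2 (7186 ± 795), the growth inhibitor gene Cdkn1c (9410.0 ± 877) and the non-coding H19 (50729 ± 5315), which are imprinted genes, were bright, and Dlk1, also imprinted, was dim (129.5 ± 15.7). At the brightest probe of each gene, the calls of this list were small apart from Actc1 and Tnnt2. The dimmer probe of Mymx, at percentile 17.4, was called with a range of 1.68 log2 (adjusted p = 2.3e-07), unlike its brighter probe (adjusted p = 0.823 without the first array of animal 2, 0.658 with it). Chrna1, the alpha subunit of the muscle acetylcholine receptor, read 747, 899.7, 911 and 912 (adjusted p = 0.612). The calls of this list ended for H19 without animal 1 or 3 or 4 (adjusted p = 0.365 and 0.102 and 0.0644), Igf2 without animal 1 or 2 or 3 or 4 (adjusted p = 0.131 and 0.0912 and 0.0618 and 0.115), Tnnt2 without animal 1 (adjusted p = 0.086) and Mymk without animal 1 (adjusted p = 0.582).

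Actc1, the cardiac actin that is expressed in immature skeletal fibres, differed widely between animals. Its intensities in animals 1 to 4 were 29994, 117349, 80695 and 39162, and the arrays of the 4 animals did not overlap. The range was 1.97 log2 (adjusted p = 5.65e-08), and animals 2 and 3 were high. Tnnt2, the cardiac troponin T, went another way, with 658, 304, 355 and 297 (adjusted p = 4.77e-05) and animal 1 highest. Nmrk2, a muscle enzyme of NAD synthesis, was highest in animal 2, with 22476, 78886, 29445 and 39314 (adjusted p = 1.57e-07). Tpm4, a cytoskeletal tropomyosin, read 1753, 3782, 4912 and 3461 (adjusted p = 3.33e-07), lowest in animal 1.

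The enzymes that buffer and pass on high-energy phosphate were bright. Of the 10 phosphagen genes, all measured, 4 lay in the top 1%, and the median percentile was 98.0. Ckm read 216088, 245151, 233457 and 267631 in animals 1 to 4 (adjusted p = 0.244), and its mitochondrial partner Ckmt2 107653, 132922, 143665 and 143209 (adjusted p = 0.000852). Ak1, which equilibrates adenine nucleotides, read 60376, 73932, 61205 and 65953 (adjusted p = 0.0247). Animal 1 was the lowest for 5 of the 7 called genes, among them Ckmt2, Ak1 and Ampd1, the AMP deaminase of the purine nucleotide cycle (48682, 71278, 70328 and 63153; adjusted p = 0.00478). Adssl1, the next enzyme of that cycle, read 34489, 40882, 48807 and 46040.2 (adjusted p = 0.0179), Adsl, which completes it, 7692, 7769, 7377 and 7065, and Slc6a8, the creatine transporter, 15992, 18501, 17218 and 19162. Gamt, the last enzyme of creatine synthesis, was highest in animal 2, with 2564, 3928, 2903 and 2061 (adjusted p = 4.53e-05). Gatm, the first, read 408, 456, 274 and 362 (adjusted p = 0.0129), and Ckb, the brain-type kinase, 1282, 1779, 1502 and 1453 (adjusted p = 0.0161). The 7 called genes were 70% of the list, against 32.0% of all genes. Without animals 1, 2, 3 and 4 in turn, 2, 5, 6 and 7 of the 10 were called. The calls that ended were those of Ckmt2 without animal 1 (adjusted p = 0.254), Ak1 without animal 1 or 2 (adjusted p = 0.0528 and 0.375), Ampd1 without animal 1 (adjusted p = 0.366), Adssl1 without animal 1 or 3 (adjusted p = 0.115 and 0.0689), Ckb without animal 1 or 2 (adjusted p = 0.0843 and 0.117) and Gatm without animal 3 (adjusted p = 0.199).

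Glycolysis and glycogen genes had a median percentile of 97.8 over 20 measured of 29, with 6 called, a share of 30% beside the 32.0% of all genes. Pfkm, the muscle phosphofructokinase, read 223485, 224758, 206413 and 223038 in animals 1 to 4, and Aldoa, the aldolase, 185187, 190625, 211101 and 203426. Gpd1, which links glycolysis to glycerol phosphate, read 51533, 63114, 53124 and 49769 (adjusted p = 0.00502), a call that ended without animal 2 (adjusted p = 0.507). The widest range in the list was that of Phka1, the alpha subunit of muscle phosphorylase kinase, which starts glycogen breakdown: 3567, 5718, 7560.4 and 8196 (adjusted p = 0.000265). It was lowest in animal 1. Phkg1, its catalytic subunit, read 18046, 24675, 23213 and 21104 (adjusted p = 0.00559), also lowest in animal 1, and its call ended without animal 1 (adjusted p = 0.0903).

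Ppp1r3c, a regulatory subunit that brings protein phosphatase 1 to glycogen, is outside that list and differed more. It read 13877, 41153, 52391 and 59451 in animals 1 to 4, a range of 2.10 log2 (adjusted p = 9.77e-09), and was also lowest in animal 1. Pfkfb3, which makes the activator of phosphofructokinase, read 18930.5, 6093, 25779.8 and 16574 (adjusted p = 2.14e-08). Its arrays did not overlap between animals, and animal 2 was lowest.

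Mitochondrial genes formed the other bright block. Of 42 measured genes of oxidative phosphorylation, of 50 listed, 25 lay in the top 1%, with a median percentile of 99.3. Cox5a, a subunit of complex IV, read 241103, 231197, 237778 and 243526 in animals 1 to 4, and Ndufa4 182826, 168568, 144992 and 172131. For the ADP/ATP carriers and the outer membrane channels, 7 measured of 8, the median percentile was 99.7. Of the 7, 1 was called (14.3%, against 32.0% of all genes). Slc25a4, the carrier of heart and muscle, read 169084, 174972, 174230.0 and 191521. The 19 measured genes of the citric acid cycle had a median percentile of 98.8 and the 24 of fatty acid use 97.1. The called share was 38.1% for oxidative phosphorylation, 36.8% for the citric acid cycle and 50% for fatty acid use, beside the 32.0% of all genes. That 32.0% is not matched for brightness. Of the 5841 probes above the silent-gene level, defined below, 2891 were called when only those were tested. The median ranges over the measured members of the 3 lists were 0.25, 0.30 and 0.45 log2. Cox7a1, the muscle form of a complex IV subunit, read 20364, 22909.6, 26768 and 30271 (adjusted p = 0.00195) and Cox8b, another muscle form, 77059, 80285, 96753 and 95969 (adjusted p = 0.00319), both lowest in animal 1. Idh2, the mitochondrial NADP-linked isocitrate dehydrogenase, read 18006, 9696, 16752 and 12934 (adjusted p = 0.00045), and Dld, the shared E3 subunit of the keto acid dehydrogenases, 12989, 14313, 18030.2 and 19574 (adjusted p = 0.000563). In fatty acid use, Plin5, a coat protein of lipid droplets next to mitochondria, was highest in animal 1 with 2578, 1138, 1457 and 1320.2 (adjusted p = 2.2e-05), a call that ended without animal 1 (adjusted p = 0.063). Of the 12 called genes of fatty acid use, animal 1 was highest for 9; without animals 1, 2, 3 and 4 in turn, 5, 8, 9 and 8 were called. The calls in oxidative phosphorylation numbered 9, 12, 11 and 10 in the same order.

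Genes that couple excitation to contraction were bright as well. The 17 measured of 21 had a median percentile of 98.1. Hrc, a calcium-binding protein of the sarcoplasmic reticulum, read 106446, 117803, 111748 and 110422 in animals 1 to 4, and Srl, sarcalumenin, 106217, 97912, 99686 and 110917. Jsrp1, of the junctional face, read 84449.9, 95064, 101066 and 88630.5 (adjusted p = 0.0271). In this list 12 of 17 were called (70.6%, against 32.0% of all genes), and without animals 1 to 4 in turn 7, 7, 8 and 9. Mrln, the pump inhibitor myoregulin, read 22159.7, 19893, 30983 and 27945 (adjusted p = 0.00114), higher in animals 3 and 4. Cacng1, the gamma subunit of the muscle calcium channel, read 37723, 26821, 30912 and 24515 (adjusted p = 0.00491), and Kcnj11, the pore of the ATP-sensitive potassium channel, 10830.4, 14529, 15672 and 14094 (adjusted p = 0.00368). The calls of Jsrp1 and Kcnj11 ended: Jsrp1 without animal 1 or 3 (adjusted p = 0.129 and 0.165) and Kcnj11 without animal 1 (adjusted p = 0.271).

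At the neuromuscular junction all 15 listed genes were measured, with a median percentile of 73.5. Of the 15, 9 were called (60%, against 32.0% of all genes). Chrne, the adult acetylcholine receptor subunit, read 8033, 9119, 7067 and 7918 in animals 1 to 4, against 703, 827, 967 and 765 for the fetal Chrng at another probe. Of the 9 called genes, animal 1 was highest for 7, among them Chrnb1, the beta subunit (5929, 4879.8, 4246 and 4833; adjusted p = 0.00247). Ache, the acetylcholinesterase, read 5878, 7066, 5208 and 4782 (adjusted p = 0.00789) and Utrn, utrophin, 3036, 2991, 2781 and 3937 (adjusted p = 0.0035). Without animals 1 to 4 in turn 4, 6, 8 and 5 of 15 were called, and the calls ended for Chrnb1 without animal 1 (adjusted p = 0.115), Ache without animal 2 (adjusted p = 0.155) and Utrn without animal 4 (adjusted p = 0.378).

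Of the transcription factors of muscle, 17 of 25 were measured, and Mef2c, Tbx15 and Tead1 were the brightest at 32775 ± 2766, 30614 ± 2678 and 18254 ± 1459 (SD, n = 4). Maf, of the large Maf family, read 6629.9, 6450.3, 9910.4 and 9377 in animals 1 to 4 (adjusted p = 0.000386), higher in animals 3 and 4, and Six4 1701, 1116, 1391 and 1140.2 (adjusted p = 0.000571). The calls of Mef2c and Tead1 ended: Mef2c without animal 1 or 3 (adjusted p = 0.106 and 0.0567) and Tead1 without animal 1 or 3 or 4 (adjusted p = 0.151 and 0.0709 and 0.0831). Myf6, Myod1 and Myog are not analysed here. Satellite cell genes, 12 measured of 16, had a median percentile of 72.5, and 50% of them were called, against 32.0% of all genes. Pax7, their defining transcription factor, had a mean of 199, below the 2071 taken here as the level of silent genes, and Cdh15, M-cadherin, 2012. The called members were 6, with Chodl at 1224, 1288, 1912 and 1994 (adjusted p = 3.3e-05), Itga7 at 4610.2, 6005, 4777 and 6645 (adjusted p = 0.00194) and Sdc4 at 2628, 3953, 4545 and 4530.5 (adjusted p = 0.00085). The call of Sdc4 ended without animal 1 (adjusted p = 0.183).

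Markers of the other cell types of muscle differed in brightness. The silent-gene level, 2071, was the 95th percentile of 627 probes of olfactory, vomeronasal and taste receptors, whose median was 129; 5841 probes (22.1%) and 4887 genes (27.5%) lay above it. In whole muscle, fewer cells of a type and less RNA per cell cannot be told apart. Fibroblast genes had 15 of 16 measured members above that level, endothelial genes 15 of 16, matrix genes 16 of 22 and mural genes of vessel walls 8 of 11. Dcn, the fibroblast proteoglycan decorin, read 111932, 130246, 119053 and 139984 in animals 1 to 4 (adjusted p = 0.0804). The other probe of Dcn, at percentile 99.1, was called with a range of 0.95 log2 (adjusted p = 0.00784). Col4a2, of the basement membrane that wraps each fibre, read 50524, 55819, 47777 and 58284, and Aqp1, the endothelial water channel, 23782, 20131, 24574 and 25396. Macrophage genes had 3 of 15 above the level, all complement C1q chains: C1qa at 4999 ± 694, C1qb at 3261 ± 884 and C1qc at 3048 ± 444 (SD, n = 4). Schwann cell and nerve genes had 4 of 13, adipocyte genes 6 of 18, and tendon, cartilage and bone genes 4 of 16. Of the bone genes of that list, Bglap, Sp7 and Dmp1 were dim, with means of 298, 811 and 105, whereas Ibsp had a mean of 2500.3 ± 2449 (SD, n = 4) and was above the silent-gene level in animals 3 and 4.

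Lymphocyte and erythroid genes were dim. None of the 15 measured lymphocyte genes was above the silent-gene level, and Cd3e, of the T cell receptor complex, had a mean of 535. None of the 6 measured erythroid genes was above it either. Of 13 neutrophil and mast cell genes 2 were, the mast cell tryptase gene Tpsb2 at 4476 ± 387 and the lactoferrin gene Ltf at 2702 ± 264 (SD, n = 4). Alas2, the haem synthesis enzyme of red cell precursors, read 1397, 752, 1137 and 1357 in animals 1 to 4 (adjusted p = 0.00085), lowest in animal 2, and its call ended without animal 2 (adjusted p = 0.195). Bpgm, Hemgn, Klf1, Slc4a1 and Epb42 had means of 314, 225, 207, 114 and 32.6. The globin genes are not analysed here. Tissues not part of the muscle gave a yardstick. Median percentiles were 38.7 for liver, 35.0 for pancreas and gut, 39.3 for retina and lens, 29.8 for germ cells, 53.3 for brain and 61.0 for epidermis. Those of lymphocyte, erythroid and neutrophil or mast cell genes, 36.7, 36.0 and 40.9, lay within that span. So did those of nerve, macrophage and tendon, cartilage and bone genes, 43.7, 60.2 and 60.3. Of the foreign lists, epidermis had 5 of 16 genes above the silent-gene level and brain 3 of 13. By these measures such lists cannot be told from those of foreign tissues. Single probes of foreign tissues were bright all the same: Nrgn, a brain gene, had a mean of 6429, and Opn1mw, a cone pigment, 4911. Cross-hybridisation at these probes was not tested. Nrgn arrays ranged from 1328 to 10574, both within animal 2.

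**Figure D2:**
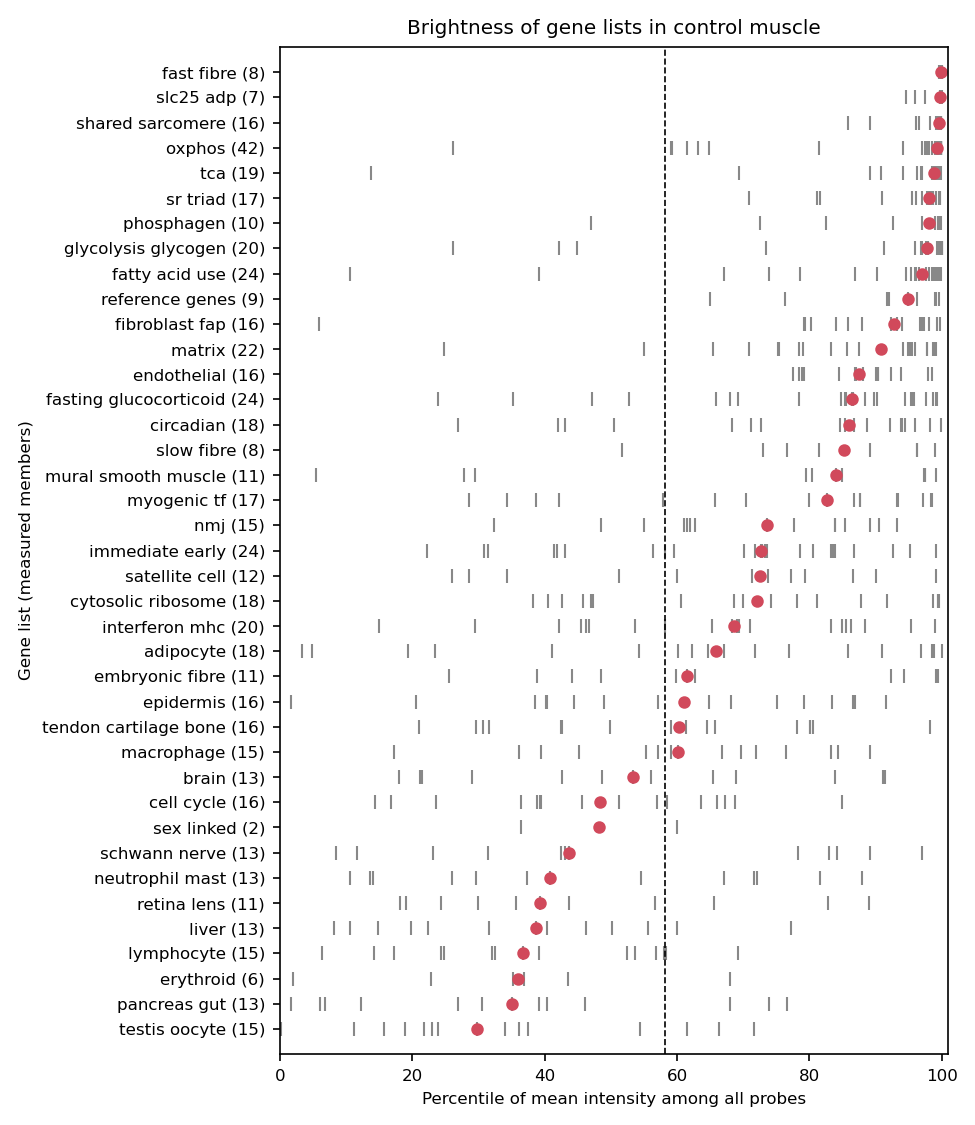
Percentile of mean intensity among all 26423 probes (x axis) for the measured members of 39 gene lists (rows, number measured in brackets). Grey ticks are genes, red points are list medians and the dashed line is the median of all 17742 genes. Muscle and mitochondrial lists lie at the top right. Lists of blood cells and most foreign tissues lie at the lower left, and the epidermis median lies right of the dashed line.

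Between the animals, 462 called probes had a range of at least 1 log2, and 58 of at least 2. The median range of called probes was 0.45 log2. On 7782 of the 7799 called probes every array of the highest animal lay above every array of the lowest. A call rests on the spread of these same arrays, so this separation adds no support to it. Animal 1 differed from the mean of the other 3 on 5843 probes (22.1%), of which 3329 were higher in it. Animal 2 did so on 3284 (12.4%), with 2154 lower, animal 3 on 2426 (9.18%) and animal 4 on 2932 (11.1%). These counts overlap, since each animal is also part of the others' comparison. Animal 1 held the most calls but few large ones: 66 of them reached 1 log2, against 87 for animal 2, 112 for animal 3 and 64 for animal 4. Lists differed in how many of their members were called. They were chosen with earlier results of these data known, so their shares are a description and not a test. The share was 95.8% for genes of fasting and glucocorticoid response, 83.3% for clock genes, 80% for both macrophage and interferon genes, 7.69% for liver genes and 6.67% for lymphocyte genes, beside the 32.0% of all genes. Brighter probes were called more often, with 2891 of the 5841 probes above the silent-gene level called when only those were tested. For bright lists, such as those of muscle, mitochondria and endothelium, the 32.0% is thus a low yardstick.

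**Figure D3:**
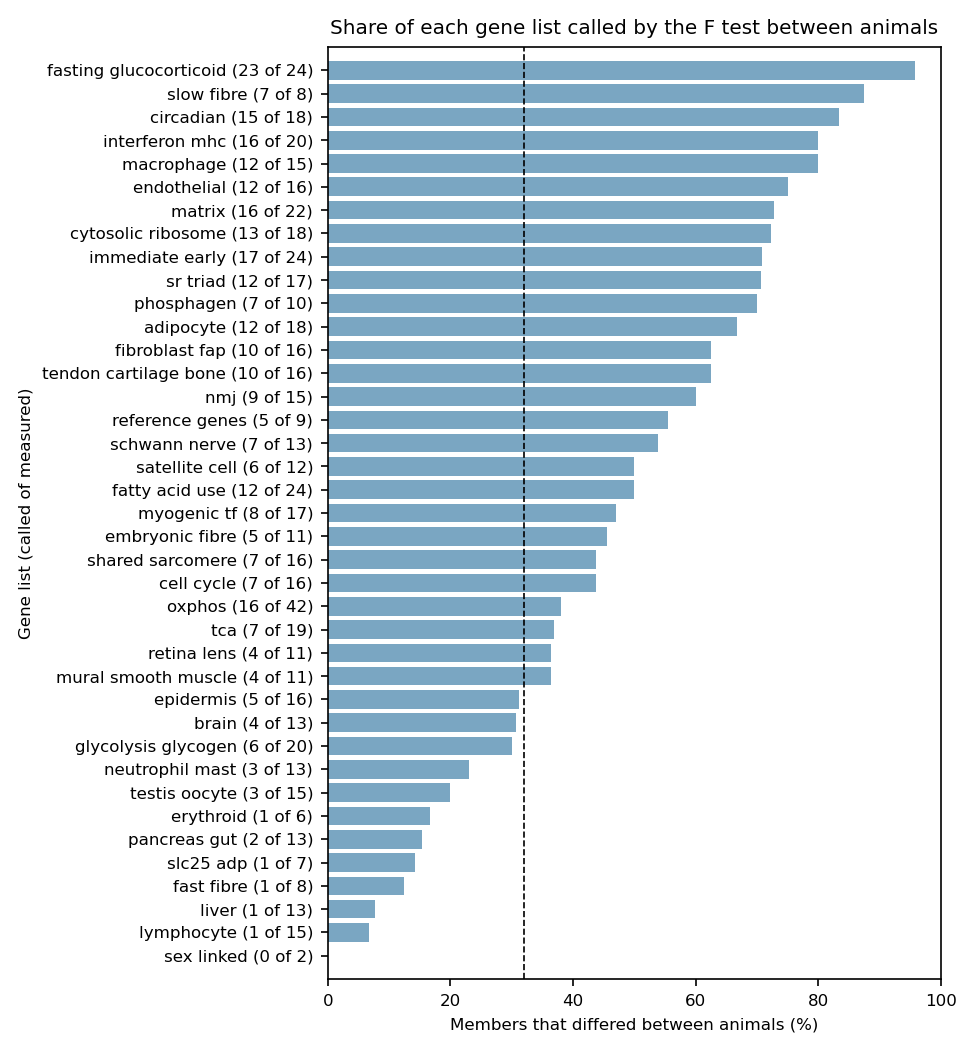
Percent of measured members that differed between the 4 control animals (x axis, from 0; limma F test, adjusted p under 0.05) for each of 39 gene lists (bars, called of measured in brackets). The dashed line marks 32.0%, the share of all genes. The fasting and glucocorticoid list is at the top with 23 of 24. The lists were chosen with earlier results of these data known.

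Several genes of bone and of remodelling matrix differed widely between animals. Ibsp, the bone sialoprotein of mineralised matrix, had the widest range of the called genes, 5.77 log2, but its lowest animal lay below the median of silent genes, so that range is not a measured fold. Spp1, osteopontin, is a matrix protein of bone and of activated macrophages, and Mmp13 is a collagenase. Both have a promoter in which the core letters of Runx binding, TGTGGT, occur, and that of Ibsp does not hold them. Runx2 is the master transcription factor of bone-forming cells, which is why the promoters are shown; the motif was chosen after these values were seen. The promoters of RefSeq on GRCm38.p6 run from 250 bases before to 50 after the annotated start, all on the + strand. That of Mmp13 is at chr9:7272264-7272563, of Spp1 at chr5:104434861-104435160 (the first of 2 given) and of Ibsp at chr5:104299037-104299336. Capitals mark TGTGGT and TATAAA on either strand:
Mmp13: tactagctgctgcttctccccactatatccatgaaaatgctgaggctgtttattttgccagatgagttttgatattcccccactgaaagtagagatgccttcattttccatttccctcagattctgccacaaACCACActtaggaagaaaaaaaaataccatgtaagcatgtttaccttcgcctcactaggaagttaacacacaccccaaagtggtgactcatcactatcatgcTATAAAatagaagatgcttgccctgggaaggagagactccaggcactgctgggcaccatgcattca
Spp1: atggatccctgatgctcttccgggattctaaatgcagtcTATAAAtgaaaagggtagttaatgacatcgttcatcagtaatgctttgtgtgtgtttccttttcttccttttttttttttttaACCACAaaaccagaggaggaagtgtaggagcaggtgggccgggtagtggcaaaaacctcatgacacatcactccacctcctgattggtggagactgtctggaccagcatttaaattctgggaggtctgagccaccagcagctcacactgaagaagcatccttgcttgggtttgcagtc
Ibsp: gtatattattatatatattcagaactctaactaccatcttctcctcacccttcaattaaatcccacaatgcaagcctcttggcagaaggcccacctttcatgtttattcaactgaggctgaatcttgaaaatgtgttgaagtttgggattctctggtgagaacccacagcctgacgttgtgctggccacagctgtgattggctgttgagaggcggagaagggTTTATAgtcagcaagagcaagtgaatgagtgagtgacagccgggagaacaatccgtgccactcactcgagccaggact

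On the reverse strand TGTGGT is read as ACCACA, first base at −118 in Mmp13 and −128 in Spp1 relative to the start. The TATA letters TATAAA begin at −16 in Mmp13 and −211 in Spp1, and lie on the reverse strand at −28 in Ibsp. Of the 32851 mouse promoters of this length in the table, 16.8% hold TGTGGT on either strand and 13.6% hold TATAAA, so both are common. The 2 motifs share no overlap in these promoters. A match is not a binding site, and a window without one says nothing about the factor.

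Ibsp read 1126, 89.4, 5644 and 3141 in animals 1 to 4 (adjusted p = 1.98e-09). In animal 2 all 3 arrays lay below 129, the median of the receptor probes taken as silent: 83.0, 68.2 and 117, and in animal 3 the arrays read 5811, 5602 and 5521. Mmp13 read 4849.6, 1253, 18724 and 12202, a range of 3.89 log2 (adjusted p = 1.14e-08), and Spp1 1658, 570.5, 8373 and 3974, a range of 3.84 log2 (adjusted p = 1.37e-09). Against the silent-gene level of 2071, under which animal 2 lay for each, the highest animal was at least 2.73-fold higher for Ibsp, 9.04-fold for Mmp13 and 4.04-fold for Spp1. The order was animal 3, then 4, then 1, then 2 for all of them, and the arrays of the 4 animals did not overlap. Postn, periostin, a matrix protein of periosteum, tendon and repair, followed the same order with 7764, 2388, 21221 and 14546 (adjusted p = 1.98e-09). So did Timp1, an inhibitor of matrix metalloproteinases, with 713, 309, 1857 and 1144 (adjusted p = 2.57e-08).

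A further set, singled out after their values were seen, had this order too. Col12a1, a collagen of tendon and fascia, read 1485, 295, 4027 and 3149 in animals 1 to 4 (adjusted p = 9.77e-09), and Sfrp4, a secreted Wnt antagonist, 1034, 261, 2972 and 1647 (adjusted p = 1.28e-09). Lrrc15, of activated fibroblasts, read 355, 116, 878 and 609, Cthrc1, of remodelling matrix, 569, 211, 1237 and 694, and the growth factor gene Ptn 1565, 502, 2801 and 2208. Both probes of Thbs2, thrombospondin 2, gave the order, the brighter with 227, 136, 692 and 486 (adjusted p = 4.93e-06). The order was not rare in itself: it was that of 260 of the 5682 called genes (4.58%), and of 46 of the 462 called probes with a range of at least 1 log2 (9.96%). The median SD between arrays of 1 animal was 0.133 log2 on these 46 probes, against 0.137 on all 462. Without animals 1, 2, 3 and 4, 46, 45, 42 and 46 of them stayed called. The 46 were picked by their call and range on these same arrays, so neither value adds support to the order.

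Other matrix and tendon genes did not all follow it. The called share of the tendon, cartilage and bone list was 62.5%, against 32.0% of all genes. Of the 10 called of 16 tendon, cartilage and bone genes, 3 had the order 3, 4, 1, 2, among them Acan, the cartilage proteoglycan aggrecan (129.8, 80.9, 231 and 189; adjusted p = 4.31e-06), and Comp, a cartilage and tendon matrix protein (127, 89.6, 238 and 211; adjusted p = 2.64e-05). Thbs4, the brightest of the list and a protein of tendon and muscle junctions, read 15884, 28836, 27789 and 32293 (adjusted p = 1.06e-05), lowest in animal 1. Tnmd, tenomodulin of tendon cells, read 1865, 1574, 2307 and 2778 (adjusted p = 0.000202) and Fmod, fibromodulin, 1867, 1933, 2774 and 3130.3 (adjusted p = 1.6e-05), both highest in animal 4. Chad, chondroadherin, read 1427, 2573, 2390.0 and 3339, and its call at adjusted p = 0.0499 ended without animal 1 or 4 (adjusted p = 0.434 and 0.183). The summed intensity of all 16 genes was 26833, 39526, 46728 and 50225 in animals 1 to 4. Unlike Ibsp, 3 other bone genes were not called: Sp7, the osteoblast factor osterix, read 544, 907, 1009 and 785 (adjusted p = 0.245), Bglap, osteocalcin, 279, 291, 318 and 304 (adjusted p = 0.341), and Dmp1, of osteocytes, 98.3, 108, 111 and 102 (adjusted p = 0.275). Fibroblast collagens moved less. Col1a2 read 7887, 5448, 9386 and 9503 (adjusted p = 0.000768), a call that ended without animal 2 (adjusted p = 0.153), and Col3a1 2482, 2196, 2361 and 2784 (adjusted p = 0.0419), ended for Col3a1 without animal 2 or 4 (adjusted p = 0.129 and 0.313). Lum, lumican, read 7922, 6901, 10626 and 11251 (adjusted p = 2.8e-05), Fap, fibroblast activation protein, 2960.3, 2298, 4075 and 3508 (adjusted p = 5.04e-05), and the collagen cross-linking enzyme gene Lox 483, 342, 736 and 746 (adjusted p = 3.32e-06). Whether neighbouring tissue taken at dissection had a part in the bone and matrix differences was not tested. Mgp, matrix Gla protein, which inhibits calcification, was highest in animal 3 with 6899.7, 12048, 27876 and 12281 (adjusted p = 1.79e-07).

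**Figure D4:**
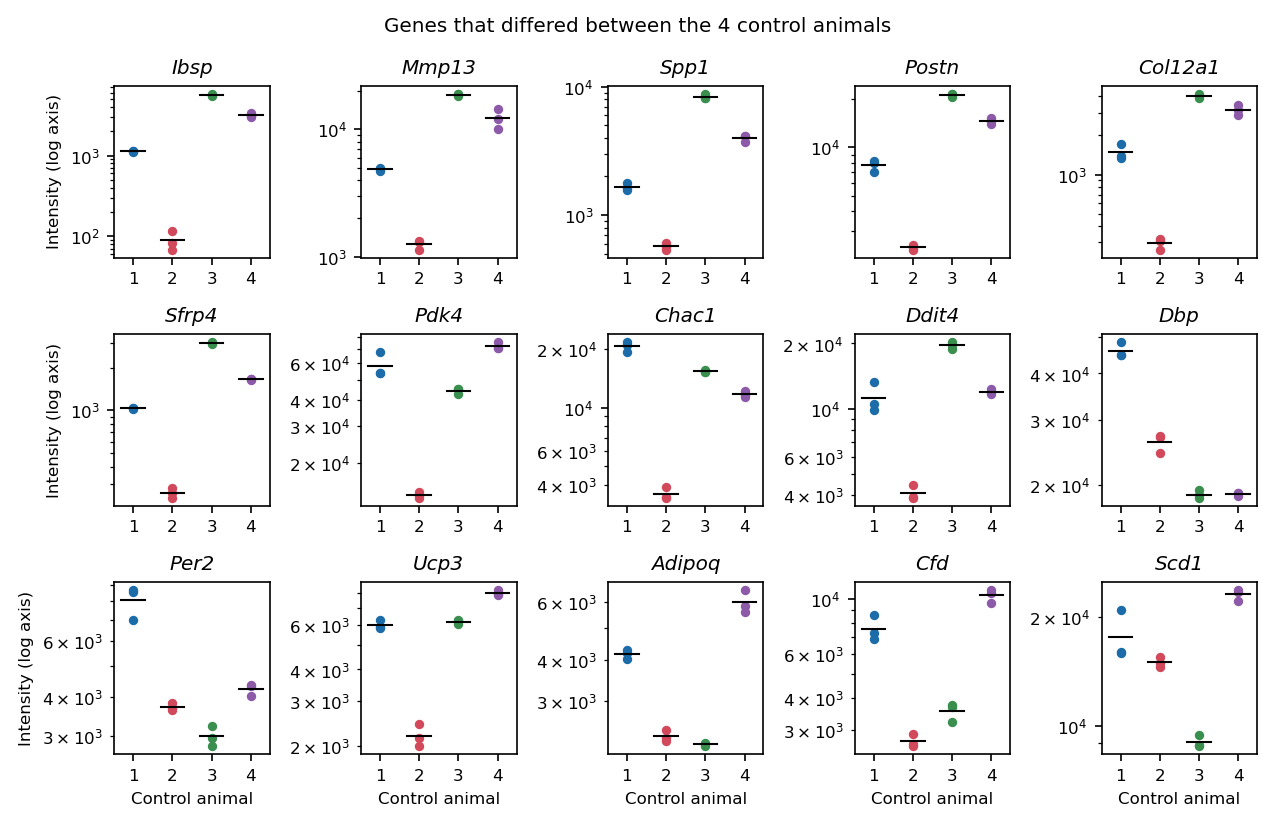
Intensity (log y axis, scaled for each gene) on the 12 control arrays for 15 genes that differed between animals; points are arrays, coloured by animal (x axis), and bars are animal means. The first 6 panels, from Ibsp to Sfrp4, share the order animal 3, 4, 1, 2; Pdk4, Chac1, Ddit4 and Ucp3 are lowest in animal 2, Dbp and Per2 highest in animal 1, and Adipoq, Cfd and Scd1 highest in animal 4.

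Genes of fasting and glucocorticoid response were often lowest in animal 2 and highest in animal 4. Of 24 measured of 25, 23 were called (95.8%, against 32.0% of all genes). Animal 2 was lowest for 16 of the 23 and animal 4 highest for 14. In the most frequent orders over all called genes, 1, 4, 3, 2 (8.48%) and 1, 3, 4, 2 (7.48%), animal 2 was lowest too. Other orders with animal 2 lowest add to these shares. Without animals 1, 2, 3 and 4 in turn, 19, 19, 23 and 19 were called. Pdk4, the kinase that shuts off pyruvate dehydrogenase in fasting, read 58277, 14015, 44229.7 and 72209 in animals 1 to 4, a range of 2.36 log2 (adjusted p = 9.41e-08), and the arrays of the 4 animals did not overlap. Ucp3, a mitochondrial carrier induced by fatty acids, read 5976, 2191, 6157 and 7991 (adjusted p = 1.57e-07), and Angptl4, a lipoprotein lipase inhibitor, 2047, 853, 2701 and 3154 (adjusted p = 6.1e-08). All 3 are target genes of the fatty acid receptors PPAR. Ddit4, the stress-induced mTORC1 inhibitor also known as Redd1, read 11204, 4071, 19620.1 and 11958 (adjusted p = 5.51e-07), highest in animal 3. The metallothionein genes Mt1 and Mt2, which bind zinc, read 20132, 13708, 19579.6 and 28952 (adjusted p = 8.58e-05) and 3582, 2539, 5353 and 9662 (adjusted p = 2.57e-08), highest in animal 4. The ubiquitin ligases of muscle wasting were lowest in animal 2 as well, Fbxo32, atrogin-1, with 10226, 5644, 10682 and 12046 (adjusted p = 1.61e-06) and Trim63, MuRF1, with 53724, 42325, 55427 and 64790.2 (adjusted p = 0.00398). Klf15, a glucocorticoid target that directs amino acid use, read 4790.1, 2618, 3351 and 3634 (adjusted p = 0.00144). Without animal 2 the calls ended for Fbxo32 (adjusted p = 0.0552) and Trim63 (adjusted p = 0.112), but not for Pdk4 (adjusted p = 0.00317) or Ucp3 (adjusted p = 0.00289).

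Other members of the list took other orders. Fkbp5, a glucocorticoid receptor chaperone, was highest in animal 4 with 3157, 2582, 2778 and 5670.3 (adjusted p = 9.11e-05), a call that ended without animal 4 (adjusted p = 0.212). Foxo1, the transcription factor of fasting, read 1128, 1155, 867 and 1808 (adjusted p = 4.48e-05), lowest in animal 3. Gadd45a, a gene of DNA damage and atrophy, was highest in animal 1 with 18780.5, 10500.1, 10002 and 10112 (adjusted p = 5.54e-06), and its call ended without animal 1 (adjusted p = 0.694). Depp1, a FoxO target, read 2776, 1553, 5287 and 1670.0 (adjusted p = 3.33e-07), highest in animal 3. Cish, a feedback inhibitor of cytokine and growth hormone signalling, read 8177, 2158, 7524 and 3915 (adjusted p = 1.72e-06), lowest in animal 2.

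Chac1, which breaks down glutathione and is a target of the stress factors ATF4 and CHOP, differed by 2.50 log2 between animals. ATF4 and CHOP act at shared elements of the C/EBP and ATF factor families, searched here as the letters TGATGNAA, and the Chac1 promoter holds one, which is why it is shown, at chr2:119350992-119351291 (GRCm38.p6, + strand) with the match in capitals:
Chac1: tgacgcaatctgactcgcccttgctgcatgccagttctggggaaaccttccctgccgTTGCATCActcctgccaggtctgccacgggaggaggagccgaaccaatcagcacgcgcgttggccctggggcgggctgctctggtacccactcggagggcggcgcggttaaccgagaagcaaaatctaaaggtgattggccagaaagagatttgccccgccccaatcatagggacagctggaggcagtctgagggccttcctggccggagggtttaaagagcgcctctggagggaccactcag

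The match lies on the reverse strand with its first base at −193, and 3.97% of the 32851 promoters hold these letters on either strand. Chac1 read 20534, 3619, 15343 and 11731 in animals 1 to 4 (adjusted p = 9.77e-09). Its arrays did not overlap between animals, and animal 2 was again lowest. Asns, the asparagine synthetase and another ATF4 target, did not follow it, with 1315, 1464, 961 and 909.5 (adjusted p = 0.00235) and animal 2 highest. Slc38a2, an amino acid transporter of the same response, read 2076, 3539.7, 3807 and 4027 (adjusted p = 3.27e-05), lowest in animal 1, and its call ended without animal 1 (adjusted p = 0.282).

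Clock genes were often highest in animal 1. Of 18 measured of 21, 15 were called (83.3%, against 32.0% of all genes), and animal 1 was highest for 9 of them and lowest for 4. Animal 1 was also highest in the most frequent orders over all called genes, 1, 4, 3, 2 (8.48%) and 1, 3, 4, 2 (7.48%). Other orders with animal 1 highest add to these shares. The clock runs as a loop in which Arntl and Clock switch on the Per genes and Dbp, and the Per proteins switch them off, so the arms peak at opposite times of day. The time of dissection was not given in the labels. Dbp, an output gene of the loop, read 46073, 26178, 18908 and 18962 in animals 1 to 4 (adjusted p = 4.53e-07), and Per2 8081, 3717, 2997 and 4238 (adjusted p = 5.54e-06). Arntl, also known as Bmal1, read 692, 1499, 2144 and 1699 (adjusted p = 1.79e-07) and Clock 1058, 1305, 1625 and 1556 (adjusted p = 9.95e-05). Animal 1 was thus highest for Dbp and Per2 and lowest for Arntl and Clock. Nfil3, which opposes Dbp at its sites, was lowest in animal 1 too, with 2194, 3156, 4046 and 4839.8 (adjusted p = 1.22e-05). Hlf, a relative of Dbp, read 1646, 1119, 942 and 1023 (adjusted p = 9.95e-05), highest in animal 1. Per1 was highest in animal 1 by a small step, with 10359.6, 7546, 8504 and 10072 (adjusted p = 0.00547). The 2 probes of Per3 disagreed: the brighter read 11298, 14402, 13938 and 12411 (adjusted p = 0.0793), lowest in animal 1, and the other was highest in animal 1 with a range of 1.12 log2 (adjusted p = 1.06e-06). Nr1d1, the repressor Rev-erb alpha, read 2579, 3235, 5633 and 4483 (adjusted p = 0.0106). The calls ended for Hlf without animal 1 (adjusted p = 0.122), Per1 without animal 2 (adjusted p = 0.0831) and Nr1d1 without animal 3 (adjusted p = 0.074), and without animals 1, 2, 3 and 4 in turn 10, 10, 12 and 15 of the 18 were called.

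Many fat cell genes were higher in animals 4 and 1 than in animals 2 and 3. Of 18 measured of 20, 12 were called (66.7%, against 32.0% of all genes), and 12 were called without each animal in turn. Animals 4 and 1 were the highest pair for 8 of the 12. Over all called genes the orders with that pair highest were 1, 4, 3, 2 (8.48%), 1, 4, 2, 3 (4.88%), 4, 1, 3, 2 (4.24%) and 4, 1, 2, 3 (2.39%). Adipoq, the hormone adiponectin, read 4169, 2337, 2207 and 5995 in animals 1 to 4 (adjusted p = 3.08e-07), Cfd, adipsin, 7586, 2694, 3560.2 and 10322 (adjusted p = 4.72e-07), and Cidec, a lipid droplet protein, 1409, 589, 531 and 1893 (adjusted p = 3.72e-07). For these 3 genes animals 4 and 1 were high, and for Adipoq and Cfd the arrays of the 4 animals did not overlap. Pck1, which in fat cells makes glycerol for triglyceride, read 1126, 249, 474 and 2038 (adjusted p = 1.79e-07), Plin1, a lipid droplet coat, 1554, 1340.4, 1151 and 1733 (adjusted p = 0.000838), and the hormone gene Lep, leptin, 129, 81.0, 79.8 and 179 (adjusted p = 0.000411). Scd1, a fatty acid desaturase, read 17619, 14987, 9033 and 23087 (adjusted p = 1.82e-05). Plin4, another lipid droplet coat, read 36538, 29453, 24775 and 34305 (adjusted p = 0.000827). Other members did not follow this pattern. Fabp4, a fatty acid binding protein, read 31696, 31779, 41937 and 53116 (adjusted p = 6.63e-05), and Car3 240807, 247223, 258268 and 232489 (adjusted p = 0.665). Cidea, a lipid droplet protein of brown fat, read 1129, 1046, 609.9 and 608 (adjusted p = 2.21e-05) and Ucp1, of brown fat, 102, 96.0, 86.0 and 101 (adjusted p = 0.157). The lipogenic genes Thrsp and Fasn were highest in animal 2, with 2083, 2399, 1785 and 1601 (adjusted p = 0.000713) and, at a dim probe, 32.0, 55.3, 32.7 and 50.8 (adjusted p = 0.00974). Pparg, the fat cell regulator, was dim at 47.2, 35.2, 34.7 and 33.7. Clec2d, a lectin-like receptor gene, had the same pattern as Adipoq with a wider range, 5636, 2254, 2180.3 and 12749 (2.54 log2; adjusted p = 1.74e-08).

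Pmp22 and Mbp, of myelin, followed the order of animals 2, 4, 1, 3, the 2 of the 7 called nerve genes to do so. Pmp22, a protein of peripheral myelin, read 14876, 23406, 8396 and 20278 in animals 1 to 4 (adjusted p = 3.2e-07), and its arrays did not overlap between animals. Mbp, myelin basic protein, read 1732, 3129, 801 and 2940.1 (adjusted p = 9.54e-08), with the arrays of animals 2 and 4 overlapping; its dimmer probe had the order 2, 3, 4, 1 (adjusted p = 0.0257). S100b, of Schwann cells, read 259, 314, 229.7 and 389 (adjusted p = 0.000438) and Ncmap, of the myelin of peripheral nerve, 279, 328, 230.4 and 394 (adjusted p = 0.000296), both with animals 4 and 2 high and 3 low. Sox10, the Schwann cell factor, read 3085, 3644, 3109 and 3088 (adjusted p = 0.12), Cnp, another myelin gene, 5016, 5214, 4883 and 4778 (adjusted p = 0.447), and Mag 2159, 3890.1, 3265 and 2599 (adjusted p = 0.114). The summed intensity of all 13 measured nerve genes, of 16, was 28467, 40993, 21941 and 35481. Of them 7 were called (53.8%, against 32.0% of all genes). Acta2, the actin of vessel-wall smooth muscle, had the same order, 16524, 24809, 13717 and 22934 (adjusted p = 4.81e-06), and so had Tagln, transgelin, at a dim probe, 138, 176, 113 and 155 (adjusted p = 0.016), whose call ended without animal 3 (adjusted p = 0.153). Rgs5, of pericytes, had another, 2111, 1685, 3199 and 2909.7 (adjusted p = 0.000628).

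A group of probes also had animals 2 and 4 high and animal 3 lowest, and their arrays disagreed within animals. The orders 4, 2, 1, 3 and 2, 4, 1, 3 held 74 and 36 of the 462 called probes with a range of at least 1 log2 (16% and 7.79%), but 2.85% and 2.38% of all called genes. The median SD between arrays of 1 animal was 0.436 and 0.401 log2 on these probes, against 0.137 on all 462. Serpina6, the corticosteroid-binding globulin of liver, is one of them. Its arrays read 3249.7, 1799 and 14988 in animal 1, 3274, 18256 and 18054 in animal 2, 1349, 3062 and 1351 in animal 3 and 12820.1, 12238 and 13931 in animal 4 (adjusted p = 0.046). Lhx2, a developmental transcription factor, read 2511, 1291 and 2160.3, then 2756, 10255 and 9658, then 1137, 1419 and 1044, then 8029, 7299.6 and 2678 (adjusted p = 0.0108). In both genes 1 array of animal 2, the first, read well below the other 2, and it is the array that stood apart over all probes. Creb3l3, a liver and gut transcription factor, read 2808, 5678, 1198 and 8039 as animal means (adjusted p = 0.0145). Nrl and Sst, of retina and pancreas, and the B cell gene Cd79a had the same pair of animals high, with 500.2, 763, 203 and 1057 (adjusted p = 0.0126), 164, 381, 99.2 and 427 (adjusted p = 0.00625) and 953, 1594, 647 and 1786 (adjusted p = 0.167). The calls ended for Serpina6 without animal 3 or 4 (adjusted p = 0.305 and 0.123), Lhx2 without animal 3 (adjusted p = 0.0801), Creb3l3 without animal 3 (adjusted p = 0.116), Nrl without animal 3 or 4 (adjusted p = 0.174 and 0.0718) and Sst without animal 3 (adjusted p = 0.0726). Of the 74 probes of the order 4, 2, 1, 3, 73 stayed called without the first array of animal 2, and 68, 68, 47 and 44 without animals 1, 2, 3 and 4. What these probes share was not tested. By contrast, Pmp22 arrays of animal 2 read 23088, 23556 and 23574.

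Interferon-induced and antigen presentation genes were highest in animal 2 for 12 of the 16 called, of 20 measured and 28 listed; without animal 2, 9 were called. B2m, the light chain of MHC class I, read 41577, 58369.6, 34377 and 39114 in animals 1 to 4 (adjusted p = 0.00254), Gbp3, an interferon-induced GTPase, 1141, 1756, 942 and 872 (adjusted p = 7.64e-06), and Tap1, the peptide transporter of class I loading, 765, 1034, 416 and 484 (adjusted p = 3.17e-05). Usp18, induced by type I interferon, read 256, 514, 358 and 343 (adjusted p = 0.000251) and Psmb9, of the immunoproteasome, 1606, 1574, 991 and 845 (adjusted p = 7.18e-05), highest in animal 1. The call of B2m ended without animal 2 (adjusted p = 0.218). The class II genes H2-Aa and Cd74 read 14040.3, 10223, 12223 and 10423 (adjusted p = 0.0144) and 5015, 4739.5, 4157 and 4684 (adjusted p = 0.117). Macrophage genes were highest in animal 1 for 9 of 12 called, of 15 measured. Cd68, of macrophage lysosomes, read 2271, 721, 1006 and 1084 (adjusted p = 5.61e-05) and Ctss, cathepsin S, 1271, 388, 567 and 617 (adjusted p = 1.99e-05). Csf1r, the growth factor receptor of the lineage, had a smaller range, 2068, 1737, 1645 and 2203 (adjusted p = 0.00308), and Adgre1, F4/80, read 315, 222, 216 and 274 (adjusted p = 0.00527), a call that ended without animal 1 (adjusted p = 0.0788). The neutrophil gene S100a9 was highest in animal 1 as well, at a dim probe, with 295, 98.9, 105 and 134 (adjusted p = 7.27e-07), while Mpo and Ltf read 1346, 1631, 1523 and 1359 and 2765, 3041, 2568 and 2434. Without animals 1 to 4 in turn 8, 12, 9 and 12 macrophage genes were called.

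Immediate early genes, which respond within minutes to stimulation or handling, were highest in animal 4 for 9 of 17 called, of 24 measured. Their called share was 70.8%, against 32.0% of all genes. Fos read 1143, 677, 1493 and 2786 in animals 1 to 4 (adjusted p = 3.22e-06), Egr1 2929, 3228, 3733 and 6164 (adjusted p = 8.14e-06) and Fosb 192, 163, 393 and 382 (adjusted p = 2.11e-06). Nr4a1, an orphan nuclear receptor, read 37961, 42191, 42647 and 60434 (adjusted p = 0.000164), and its call ended without animal 4 (adjusted p = 0.174). The heat shock genes of the list, Dnajb1 and Hspa1b, were highest in animal 3, with 2462, 2396, 4272 and 3072 (adjusted p = 3.81e-05) and 1066, 1319, 1899.8 and 1483 (adjusted p = 5.27e-05). Endothelial genes also leaned to animal 4, highest for 8 of 12 called of 16, but with small ranges and only 5 called without that animal. The share of endothelial genes called was 75%, against 32.0% of all genes. Egfl7, an endothelial matrix factor, read 26971, 30147, 27990.4 and 38419 (adjusted p = 0.00379; without animal 4, adjusted p = 0.289), and Cdh5, the endothelial cadherin, 5541, 5007, 5407 and 6737 (adjusted p = 0.00296; without animal 4, adjusted p = 0.274). Sox18, an endothelial factor, read 2688, 3432, 2686 and 4321 (adjusted p = 0.00785).

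The remaining genes named by the rule on size belong to none of these groups. Ubash3a, a phosphatase of T cell signalling, read 13579, 5393, 11618 and 6449.8 in animals 1 to 4 (adjusted p = 4.24e-07), Pttg1, securin of mitosis, 9978, 12255, 14362 and 24948 (adjusted p = 3.91e-07), and Pla2g4e, a phospholipase, 6191, 7119.6, 3600.1 and 3572 (adjusted p = 4.24e-07). Plbd1 read 4052, 5145, 7970.5 and 2114 (adjusted p = 2.16e-06), lowest in animal 4. Trp63, named from the epidermis list and below the silent-gene level, read 836, 2027, 1139.7 and 691 (adjusted p = 4.11e-07), highest in animal 2. Its dimmer probes were not highest in animal 2, with ranges of 0.47 and 0.45 log2 (adjusted p = 0.0105 and 0.0842). Qser1 was called (adjusted p = 0.0409) with 2 low arrays in animal 3, whose arrays read 438, 4319 and 792. The call ended without any of the 4 animals, and without the first array of animal 2 it had adjusted p = 0.0516. Ribosomal protein and elongation factor genes, 18 measured of 39, were often called but by small steps. Of the 18, 13 were called (72.2%, against 32.0% of all genes), and 2 without animal 1. The median range over all 18 was 0.31 log2. Rpl4 read 59240.4, 72165, 73483 and 70947 (adjusted p = 0.0102; without animal 1, adjusted p = 0.781). Common reference genes varied too: Actb, the cytoskeletal actin, read 39841, 52769, 57430.2 and 45454 (adjusted p = 0.000444) and Tfrc, the transferrin receptor, 16849, 17594, 10543 and 11797 (adjusted p = 0.000219), while Hprt read 9927, 10680.3, 10271 and 10956 (adjusted p = 0.713) and Sdha 82323, 70567, 90684 and 76349 (adjusted p = 0.187). Proliferation genes were dim, with 1 of 16 above the silent-gene level, Mki67 at 3414 ± 326 (SD, n = 4). That probe of Mki67 lay at percentile 84.9 and the other at percentile 33.5, below the level.

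Hira itself, the floxed gene, read 569, 472, 467 and 473 in animals 1 to 4, a mean of 495 ± 48.9 (SD, n = 4) and below the silent-gene level, with adjusted p = 0.101, and adjusted p = 0.0233 without the first array of animal 2. Where its probe lies relative to the floxed part was not analysed here, so the value checks no label. Of the sex-linked genes 2 of 9 were measured. Xist read 254, 207, 221 and 194 (adjusted p = 0.095) and Kdm5d 824, 701, 727 and 749.7 (adjusted p = 0.16), all below the silent-gene level and without a separation of the animals. For 1970 genes 2 probes were given. The median gap between their percentiles was 19.3 points. In 1021 at least 1 of the 2 was called and in 261 both were, with the same highest animal in 148. Where the brighter probe was called with a range of at least 1 log2, 15 of 26 had both called, 12 of them with the same highest animal.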

How the data were processed

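Total RNA (5 micrograms, labelled with Cy5, per the labels) of 4 control animals was hybridised on 3 arrays per animal, on 1-colour arrays. The authors deposited 1 table of linear intensities for 26423 probes. As judged from that table, the values had been background-subtracted (26 control values at or below 0, the lowest −12.9) and quantile-normalized over all 24 arrays of the series: the highest value was 439069.7 on every control array, and 81.0% of values were multiples of 1/24 within 0.001. Normalization over arrays that include the other genotype draws all arrays to 1 distribution and hides differences in total signal. The table holds no detection calls. Scanner, software and background method: not given in the sources used here. Array number, not depth, limits the precision.

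Probes were named from the platform annotation (20377 with 1 symbol, 0 with several, 6046 unnamed here) and updated with the RefSeq table of GRCm38.p6 (18213 current, 2126 by synonym, 38 kept), giving 17742 genes. Of 758 list entries in 39 lists, 599 were measured. Each gene is given at its brightest probe. The design assumed log2 values, so values below 0 were set to 0, 16 was added and log2 was taken. A range on this scale understates that of dim probes. Intensities of an animal are means of 3 arrays, and SDs are over 4 animals. The comparison of animals used limma 3.58.1 (lmFit, eBayes; R 4.3.3), with an F test of animal on 8 residual degrees of freedom and 4 contrasts of 1 animal against the mean of the others. Repeat number did not pair arrays: over 18 same-numbered pairs the deviations correlated at a median of −0.02 (−0.26 to 0.12). The procedure was tested on simulated data of 26423 probes: of shifts of 0.5, 1 and 2 log2 in 1 animal, 41.8%, 91% and 100% were recovered, with 7 false calls. Only 67, 67 and 66 probes were shifted, errors were independent and normal, and no array stood apart. In the real arrays 7799 probes were called, so these rates need not carry over. Alternatives were the pseudocount, filters, normalization, variance model, array weights, threshold, replicate block and arrays or animals left out.

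Genes were named by rule: the 25 brightest, those called above the silent-gene level with the 20 largest F values or the 20 widest ranges, all fibre-type, phosphagen, erythroid and sex-linked genes, and of each other list the 3 brightest and up to 3 with the smallest adjusted p. Others are examples of the lists. The members, lists and motifs were chosen with earlier results of these data known. Promoter sequences were matched by symbol for 4 of 4 genes. The knockout arrays were not used here.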

Additional observations from a re-analysis of the deposited data

Results flagged for a closer look

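For 13 of 243 named genes and 2 of 39 summed lists, 1 of the 4 animals lay far from the others, measured as its gap to the nearest animal over the whole range on the log2 scale. Chance flags about 1 in 20 groups, so about this many are to be expected among 243 genes. Animal 1 was the distant one for Hira (0.938), Idh3g (0.925), Tnnt3 (0.852), Rpl4 (0.837), Sln (0.894), Rbfox3 (0.956), Crx (0.891) and Bmp15 (0.930). It was higher than the others for Hira, Idh3g and Sln and lower for Tnnt3, Rpl4, Rbfox3, Crx and Bmp15. Animal 2 was the distant one for Sox10 (0.967) and Tnp2 (0.857), higher in both. Animal 3 was the low one for Pfkm (0.860) and Qser1 (0.895), the latter through 2 of its 3 arrays. Animal 4 was the high one for Nrap (0.894), for the summed endothelial genes (0.884) and for the summed genes of the sarcomere common to all fibres (0.981). Of these genes, Qser1 had the widest range, 2.18 log2, and the others ranged over 0.13 to 0.54 log2.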

How the results depend on the processing

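The count of probes that differed between animals depended most on arrays per animal and on weighting. The 7799 calls became 6190 with the array repeat number as a replicate block, 3432 at a threshold of 0.01, 13839 with array weights, and 2891 when only the 5841 probes above the silent-gene level were tested. Leaving out 1 repeat number, so that 2 arrays per animal remained, gave 3041, 1413 and 3286. Leaving out an animal gave 4503 to 5969, the fewest without animal 1, and leaving out 1 array other than the first of animal 2 gave 5639 to 7989. With the replicate block the counts for animals 1 to 4 against the others were 4897, 2412, 1721 and 2121. With a repeat number left out they ranged from 1614 to 2544 for animal 1, 492 to 1494 for animal 2, 405 to 1086 for animal 3 and 290 to 1709 for animal 4. The share of variance between animals, 0.416 over all probes, was 0.505 without the dimmest 30%, 0.549 above the silent-gene level, 0.476 without the first array of animal 2, a setting chosen after seeing the data, and 0.349 to 0.416 with an animal left out. Of 243 named genes, 156 were called; under the replicate block 12 of those calls were lost and 1 was gained, and without animals 1, 2, 3 and 4 in turn 40, 20, 24 and 27 were lost. The share of probes above silent genes, 22.1%, was 32.5% at their 90th percentile, 11.5% at their 99th, 16.3% against foreign tissue lists, and 21.3% to 22.9% with an animal left out. With the mean of a gene's probes the median percentile was 99.9 for the fast fibre list, 99.2 for the shared sarcomere and 98.5 for the citric acid cycle. With the dimmest probe it was 99.9, 99.2 and 98.5 for these, 99.1 for oxidative phosphorylation, 97.7 for glycolysis and 96.0 for fatty acid use. Of the foreign tissue lists, epidermis fell from 61.0 to 42.4 and brain from 53.3 to 42.7 with the dimmest probe, and 17 list medians moved in all. Counts, percents and percentiles cannot change sign, and the share of variance stayed positive. The causes of these changes were not tested. Without detection calls, dim probes could not be told from background, and the arrays of 1 animal share 1 RNA.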
